A study of Mus musculus with 51 samples.

Results

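The 31 ubiquitin-conjugating (E2) enzymes were taken as the rows of the deposited gene tables whose gene column carries their symbols, 31 of 40077 mouse genes, and all 31 passed the filter on low counts in every comparison. Bulk RNA-seq of 51 libraries, 35 of subcutaneous tumors and 16 of cultured Myc-CaP cells, addressed the loss, excess or inhibition of Uba1, the main ubiquitin E1 enzyme. The members were taken by name as a gene family, at a time when earlier results of these data were known. Ube2l6 and other E2 and E2-like genes are not among them and were followed as a separate list.

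A ubiquitin E1 enzyme activates ubiquitin and loads it onto the cysteine of an E2 enzyme, and an E3 ligase then brings the charged E2 to the protein to be modified. The E2 largely decides what kind of chain is built, so the family is spread over jobs as different as cell cycle proteolysis, DNA repair, signalling and the clearance of misfolded proteins. Most members receive ubiquitin from UBA1, whereas Ube2z is charged by UBA6 and Ube2m and Ube2f carry the ubiquitin-like protein NEDD8, which comes from its own E1. TAK-243 blocks UBA1.

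Myc-CaP is a prostate cancer line from an FVB mouse with a Myc transgene, and B16-BL6 is a C57BL/6 melanoma line. The tumors carrying guide RNAs were 3 B16-BL6 tumors with a control guide (sgNC) and 4 with a guide against Uba1 (sgUba1), and 3 Myc-CaP tumors labelled sgNC and 7 labelled sgUba1. The remaining Myc-CaP tumors were 3 with an empty vector (EV) and 4 with Uba1 overexpression (Uba1 OE), and 6 given vehicle and 5 given TAK-243, at 25 mg/kg by vein 2 times a week. Myc-CaP cells in culture formed 8 groups of 2 libraries: sgNC and sgUba1 cells, and untreated and TAK-243 cells (50 nmol/L for 18 h), each without and with IFN-γ (1 ng/mL for 18 h). The guide-carrying lines were grown from single cells, so a guide and a clone cannot be told apart, and they kept part of their Uba1. The study used 2 guides against Uba1, and the labels do not say which one a sample carries. A group labelled sgUba1 may therefore mix guides or clones, and the guide below means that label. The overexpression and EV lines both carry a lentiviral construct and were selected with blasticidin. Myc-CaP tumors grew in male FVB mice and B16-BL6 tumors in female C57BL/6 mice, so model, strain and sex cannot be told apart, and tumors were placed on both flanks, so some may share a mouse. P-values therefore measure only the spread between these samples, which in culture may be technical.

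The libraries held 8652097 to 35693203 counts in tumors and 12860987 to 38032395 in cells, and 0 of 75 replicate pairs were identical. Depth differed between experiments. Myc-CaP sgNC tumors held 10668740 to 12552908 counts, B16-BL6 sgNC tumors 28570255 to 35693203 and sgNC cells 26768564 to 30714057. In comparisons between these groups, depth and experiment cannot be told apart from model or culture. Uba1 was checked first, in CPM (counts per library after TMM scaling, brought to one total). In B16-BL6 it stood at 409.5, 455 and 414 CPM in sgNC tumors and at 208, 220.2, 228 and 247 CPM in sgUba1 tumors, and in cells it fell from 526 and 533 CPM to 283 and 295 CPM. In the Myc-CaP tumors labelled sgUba1 it stood at 197, 202 and 211 CPM in replicates 1 to 3, below the sgNC tumors at 319.6, 325 and 337 CPM, but at 373, 361, 368 and 383 CPM in replicates 4 to 7, above them. Results on these tumors are therefore given with and without replicates 4 to 7, an alternative chosen after the data were seen. Uba1 OE raised Uba1 from 278 to 310.4 CPM up to 631 to 747 CPM. Myc-CaP sgNC cells held the epithelial genes Epcam at 0 and Cdh1 at no more than 0.0744 TPM (transcript abundance scaled for gene length and library size), so these epithelial markers were absent or nearly so although the label of their tissue is prostate tumor. B16-BL6 tumors held the melanocyte genes Dct at 3795 to 4309 TPM and Pmel at 3237 to 3367 TPM in the sgNC group.

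Gene starts were read from RefSeq on GRCm38.p6, where 25 of the 31 members had an entry, in 36 promoter windows. The windows of the 4 members whose level ranged most widely over the groups are shown, 5′ to 3′ on the gene's strand, because these members carry most of what follows. Capitals mark matches on either strand to the CCAAT box (CCAAT), the cell cycle homology element (TTTGAA) or the cAMP response element (TGACGTCA).

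Ube2c, chr2:164769679-164769978, plus strand: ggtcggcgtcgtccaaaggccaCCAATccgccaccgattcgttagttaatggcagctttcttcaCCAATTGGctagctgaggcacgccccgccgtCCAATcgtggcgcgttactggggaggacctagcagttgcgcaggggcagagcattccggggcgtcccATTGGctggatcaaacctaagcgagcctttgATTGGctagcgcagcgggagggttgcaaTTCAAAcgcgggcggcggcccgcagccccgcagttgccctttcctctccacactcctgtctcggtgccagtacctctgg

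Ube2t, chr1:134962315-134962614, plus strand: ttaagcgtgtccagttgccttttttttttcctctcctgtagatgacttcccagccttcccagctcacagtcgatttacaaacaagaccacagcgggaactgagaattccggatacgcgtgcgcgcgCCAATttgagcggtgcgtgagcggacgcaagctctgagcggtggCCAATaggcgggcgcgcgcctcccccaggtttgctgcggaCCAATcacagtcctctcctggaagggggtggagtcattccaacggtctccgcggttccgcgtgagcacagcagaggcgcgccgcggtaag

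Ube2h, chr6:30304490-30304789, minus strand: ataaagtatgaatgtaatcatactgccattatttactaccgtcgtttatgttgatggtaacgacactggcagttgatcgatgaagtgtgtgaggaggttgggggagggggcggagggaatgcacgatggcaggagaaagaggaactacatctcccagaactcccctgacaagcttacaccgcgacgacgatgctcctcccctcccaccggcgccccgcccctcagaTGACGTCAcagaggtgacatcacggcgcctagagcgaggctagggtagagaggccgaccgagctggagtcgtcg

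Ube2s, chr7:4812291-4812590, minus strand: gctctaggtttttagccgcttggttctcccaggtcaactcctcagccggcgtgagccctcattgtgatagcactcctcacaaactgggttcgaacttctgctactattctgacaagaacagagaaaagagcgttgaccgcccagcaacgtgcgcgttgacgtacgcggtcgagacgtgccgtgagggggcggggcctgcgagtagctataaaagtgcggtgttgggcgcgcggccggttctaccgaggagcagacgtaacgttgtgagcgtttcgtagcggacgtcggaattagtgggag

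The Ube2c window held 6 CCAAT matches, one pair of them overlapping, and 1 TTTGAA match 29 bases before the start. At least 6 CCAAT matches were found in 0.0791% of 32851 promoter windows of the same length, and at least 1 in 37.4%. Ube2t held 3 CCAAT matches, and at least 3 were found in 3.37% of all windows. TGACGTCA occurred in 1.79% of all windows. Among the members it was found in the printed window of Ube2h, 24 bases before the start, and in a window of Ube2b. Both genes had at least 1 other window, without this match and not printed here. The Ube2s window held none of the 3 sequences. It lies wholly within the span of the gene on the GENCODE annotation given below, so it holds no bases upstream of that start. No member held TGATGNAA, found in 3.97% of all windows. Over the members, 6 had a CCAAT match and 3 a TTTGAA match (Ube2c, Ube2f and Ube2z), the second being present in 17.9% of all windows. These are matches of letters, and binding was not measured.

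On the GENCODE M21 annotation of GRCm38 the 31 members lie on 15 chromosomes, 1 of them (Ube2a) on X, and 10 overlap another gene. Ube2c spans chr2:164769898-164778822, Ube2h chr6:30211289-30304539, Ube2s chr7:4794546-4812590 and Ube2t chr1:134962565-134974162. Ube2c overlaps Tnnc2, Ube2s overlaps Rpl28 and Ube2e1 overlaps Nkiras1, and the strand used in counting is not given in the sources used here, so reads of such pairs may be mixed. Among the 31 members 6 share more than 10% of their 31-base words with another gene, led by Ube2v1 (59.9%, a readthrough transcript) and Cdc34 (21.3%, the near copy Cdc34b). The others are Ube2q2 (19.7%), Ube2j2 (14.1%), Ube2h (10.4%) and Ube2n (10.1%). The counts of all 6 are less certain.

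Levels between genes were compared in TPM, which allow for length. In untreated Myc-CaP cells the highest members were Ube2s (443 ± 2.07 TPM, SD, n = 2), which extends ubiquitin chains for the anaphase-promoting complex (APC/C), Ube2d3 (269 ± 13 TPM), which serves many ligases, and Ube2c (267 TPM), which starts the APC/C chains. The lowest were Ube2w (13.4 TPM), which modifies protein N termini, Ube2e2 (14.2 TPM) and Ube2h (16.98 TPM), the partner of the CTLH ligase. In Myc-CaP sgNC tumors Ube2d3 led (212 ± 12.1 TPM, n = 3), before Ube2s (170.1 ± 50.3 TPM) and the Rad6 ortholog Ube2b (152 ± 1.8 TPM), and the large SD of Ube2s overlapped both neighbours. B16-BL6 sgNC tumors were led by Ube2s (325 ± 28.4 TPM), Ube2v1 (278 ± 17.5 TPM), the inactive partner of Ube2n in K63-linked chains, and Ube2d3 (272 TPM). The summed level of the 31 members was 2638 ± 50.0 TPM in untreated cells, 3285 ± 84.6 TPM with TAK-243, 2915 TPM in sgNC cells and 2791 TPM in sgUba1 cells, and group means lay between 2079 and 2242 TPM in Myc-CaP tumors.

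Over the 16 groups, the highest group mean divided by the lowest was 1.23 for Ube2q1 and 2.1 at the median member, 11 members stayed under 2, and 7 exceeded 3. Ube2c ranged most, by 5.15, from 80.3 ± 21.1 TPM in TAK-243 tumors to 413 ± 5.71 TPM in sgNC cells with IFN-γ. Ube2c in order of level ran from TAK-243 tumors, tumors labelled sgUba1 (84.3 ± 33.9 TPM), sgNC (115 ± 55.4 TPM), EV (117 ± 15.1 TPM) and vehicle tumors (124 ± 21.5 TPM) of Myc-CaP, through B16-BL6 sgNC (156 ± 7.08 TPM), B16-BL6 sgUba1 (161 ± 21.9 TPM) and Uba1 OE tumors (166 ± 50.1 TPM), to cells at 243 to 413 TPM. Steps between neighbours exceeded the sum of their SDs from vehicle to B16-BL6 sgNC tumors, from Uba1 OE tumors to cells with TAK-243 (243 and 248 TPM), from these to the next cell groups (265 to 268 TPM) and from these to sgNC cells (408 and 413 TPM), and the other neighbours did not differ beyond their spread. Ube2h ranged by 5.14 and in another order: 13.1 to 18.8 TPM in the 6 cell groups without TAK-243, 43.9 to 61.5 TPM in Myc-CaP tumors, 58.7 and 60.4 TPM in cells given TAK-243, and 63.7 and 67.2 TPM in B16-BL6 tumors. The remaining wide-ranging members were Ube2s (4.25), the Fanconi anemia enzyme Ube2t (4.1), the priming enzymes Ube2e2 (3.62) and Ube2e3 (3.26), and the other Rad6 ortholog, Ube2a (3.03).

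**Figure D1:**
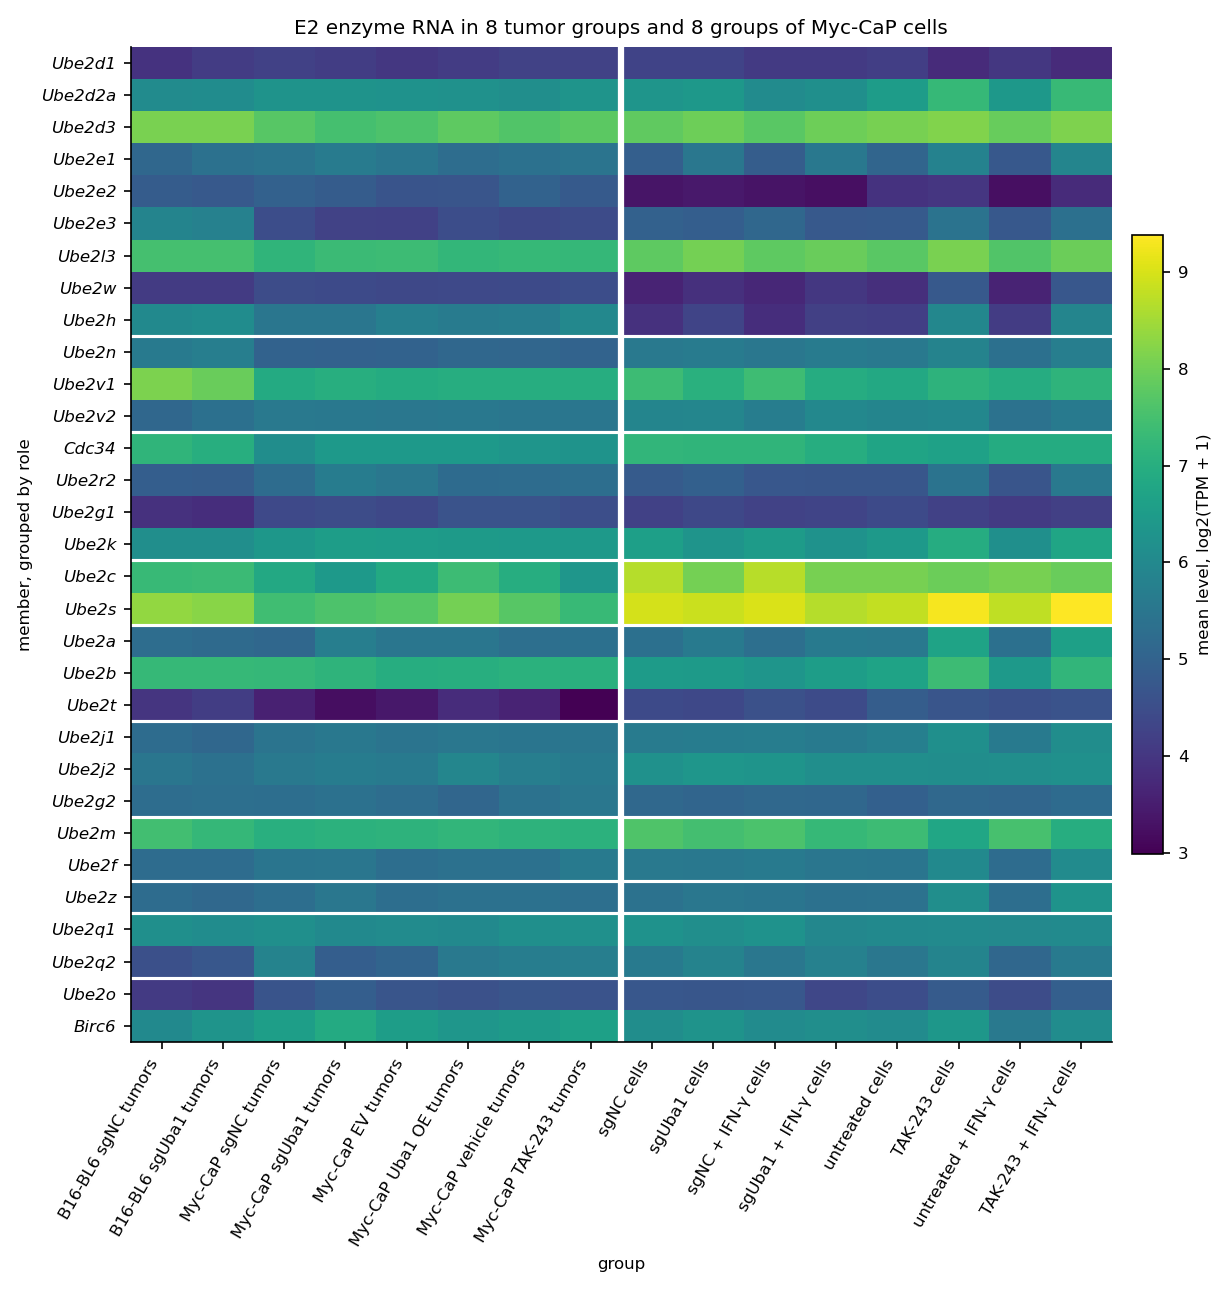
Mean level of the 31 E2 members (rows, grouped by role) in the 16 groups (columns), as colour on the log2(TPM + 1) scale. Ube2s and Ube2d3 are high throughout, Ube2c is brightest in sgNC cells without and with IFN-γ (408 and 413 TPM), and Ube2h is low in cells except those given TAK-243.

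The control tumors of both models differed in 14 of 31 members, 9 higher and 5 lower in B16-BL6, where 59.7% of all genes tested passed (30.1% higher and 29.6% lower), and 18 members did not overlap between the models, against 68.5% of all genes. Ube2e3 stood at 55.4 ± 0.305 CPM in B16-BL6 (n = 3) and 17.6 ± 1.59 CPM in Myc-CaP (n = 3), a log2 difference of 1.66 (SE 0.10, adjusted p = 1.69e-05 by the quasi-likelihood test of edgeR, with the method of Benjamini and Hochberg, as for all adjusted p here). Ube2v1 was at 271 ± 20.3 against 106 ± 12.6 CPM (log2 difference 1.35, adjusted p = 7.9e-05) and Cdc34, the E2 of the SCF ligases, at 79.3 ± 8.76 against 35.8 ± 1.13 CPM (1.15, adjusted p = 0.000112). Ube2s (1.02), Ube2n (0.70), the NEDD8 carrier Ube2m (0.56) and Ube2h (0.54) were higher as well. Ube2q2, of the little-studied Q family, was lower (−1.29, adjusted p = 0.00493), at 35.8 ± 1.57 CPM in B16-BL6 and 87.8 ± 35.2 CPM in Myc-CaP, where sgNC tumor 2 alone held far more than the others. The summed level of the 5 melanocyte genes was 8687 to 9613 TPM in B16-BL6 sgNC tumors and at most 16.3 TPM in Myc-CaP tumors. Among 20 proliferation genes 10 were higher in B16-BL6 and 0 lower, and their part in the E2 differences was not tested.

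Myc-CaP sgNC cells in culture differed from sgNC tumors in 22 of 31 members, 18 higher and 4 lower in cells, against 52.1% of all genes tested (24.4% higher and 27.7% lower), and 26 members did not overlap, against 74.1%. The median log2 difference was 0.45 over the members and −0.12 over all genes. Ube2c held 241 and 226 CPM in cells and 63.5, 22.4 and 73.1 CPM in tumors in this fit, whose scaling differs slightly from that of the tumors alone (log2 difference 2.14, SE 0.47, adjusted p = 0.0131). Ube2s held 377 and 399 CPM in cells against 125, 61.6 and 121 CPM (1.92, adjusted p = 0.00511), and Ube2t 15.6 and 12.4 against 6.30, 3.71 and 8.07 CPM (1.21, adjusted p = 0.0261). For all of these cell cycle and DNA repair members every cell library was above every tumor. Cdc34 was at 86.7 and 86.1 CPM in cells and between 31.7 and 34.4 CPM in tumors (1.40, adjusted p = 0.000821). Ube2e3 (1.16) and Ube2n (0.95) were higher too. Ube2h ran the other way, at 49.2 and 43.3 CPM in cells and 128, 101 and 117 CPM in tumors (−1.32, adjusted p = 0.00184), as did Ube2e2, at 6.08 and 6.28 against 13.4, 13.9 and 11.8 CPM (−1.08).

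All 20 proliferation genes were higher in cells (median 2.14), and tumors also held other cells: Lyz2, a myeloid gene, was at 0 TPM in sgNC cells and 124 to 243 TPM in sgNC tumors. In bulk samples fewer cells of a type and less RNA per cell cannot be told apart, and the part of either list in the E2 differences was not tested. On log2(TPM + 1) the median of all genes moved to −0.34 and that of the members to 0.10, and Ube2c, Ube2s, Cdc34, Ube2h, Ube2e2 and Ube2n kept their side of the threshold while Ube2t (adjusted p = 0.0526) and Ube2e3 (0.137) did not. Without sgNC cell library 1 or 2 the members called came to 10 in either case and without sgNC tumor 3 to 13. Ube2c was then at an adjusted p of 0.0706 and 0.0678 without the first and second cell library, and Ube2t at 0.148 and 0.0875, and at 0.0512 without sgNC tumor 1.

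TAK-243 in cultured cells changed 24 of 31 members, 20 higher and 4 lower, where 66.4% of all genes tested passed (32.4% higher and 34.0% lower). The members' median log2 fold change was 0.28, against 0.03 over all genes, and 27 members did not overlap between treated and untreated cells, against 80.9%.

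The largest change was in Ube2h, which works with the CTLH ligase. It held 51.9 and 52.2 CPM in untreated cells and 179 and 187 CPM with TAK-243, and the treated libraries were more than 3 times the untreated ones (log2 fold change 1.81, SE 0.05, adjusted p = 3.76e-43). Of the 9 broad or priming members, 7 rose and 1 fell. Ube2w rose from 18.6 and 16.9 to 34.9 and 37.9 CPM (1.03), Ube2e1, which primes substrates with a first ubiquitin, from 22.5 and 27.7 to 42.4 and 42.2 CPM (0.75, adjusted p = 3.96e-12), and Ube2d2a from 97.1 and 102 to 168 and 165 CPM (0.74). Among the relatives of Ube2d2a, Ube2d3 rose by 0.09 and Ube2d1 fell, from 12.8 and 15.9 to 10.5 and 11.2 CPM (−0.41, adjusted p = 0.00377).

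Both Rad6 orthologs, which modify PCNA and histone H2B, rose: Ube2a from 28.5 and 28.1 to 49.5 and 56.5 CPM (0.90, adjusted p = 1.77e-16) and Ube2b from 65.1 and 62.4 to 94.6 and 91.7 CPM (0.55). Ube2t, the other member of the repair group, held 17.5 and 17.4 against 16.3 and 14.3 CPM and did not pass (adjusted p = 0.146). Ube2z, which UBA6 charges, rose from 108 in both untreated libraries to 193 and 183 CPM (0.80, adjusted p = 8.2e-28).

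The members tied to cullin ligases split. Ube2r2, which builds K48-linked chains with SCF ligases as Cdc34 does, rose from 60.1 and 58.0 to 102 and 98.1 CPM (0.76, adjusted p = 5.3e-21), while Cdc34 went from 62.8 and 53.6 to 47.7 and 51.0 CPM (−0.24, adjusted p = 0.00123). The NEDD8 carriers split too: Ube2m, which serves most cullins, fell from 116 and 121 to 84.4 and 78.6 CPM (−0.53, adjusted p = 5.37e-16), and Ube2f, which serves CUL5, rose from 45.3 and 42.9 to 62.3 and 61.3 CPM (0.49, adjusted p = 1.65e-09). In each of these 4 genes the treated and untreated libraries did not overlap.

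So did the APC/C members. Ube2s rose from 303 and 306 to 446 and 417 CPM (0.50, adjusted p = 1.43e-22), and Ube2c held 138 and 136 against 134 and 135 CPM (−0.03, adjusted p = 0.54). Over 20 proliferation genes 8 rose and 9 fell, with a median of −0.06. Of the others, the hybrid E2/E3 enzymes Ube2o (0.35) and Birc6, a giant inhibitor of apoptosis (0.28), both rose, as did Ube2n (0.30) and Ube2v1 (0.18) of the K63 group, Ube2q2 (0.38), and Ube2j1 of endoplasmic reticulum quality control (0.30).

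**Figure D2:**
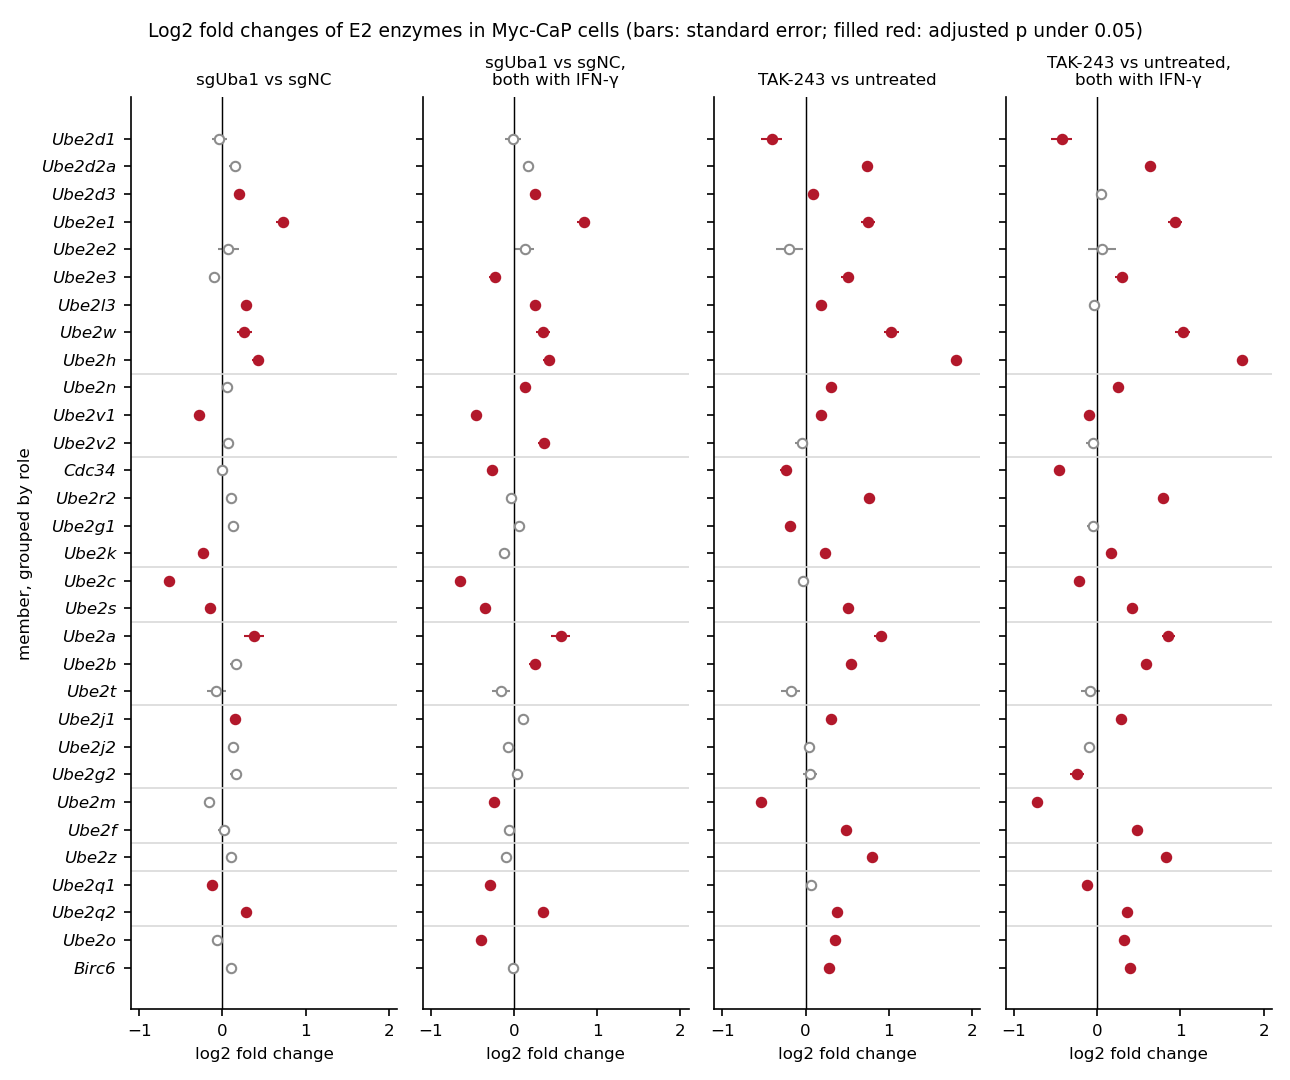
Log2 fold changes of the 31 members in cultured cells, grouped by role, with 1 SE as bars and filled points where the adjusted p is under 0.05. Ube2h stands alone at 1.81 with TAK-243, and Ube2c moves to −0.65 with sgUba1 but to −0.03 with TAK-243.

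**Figure D3:**
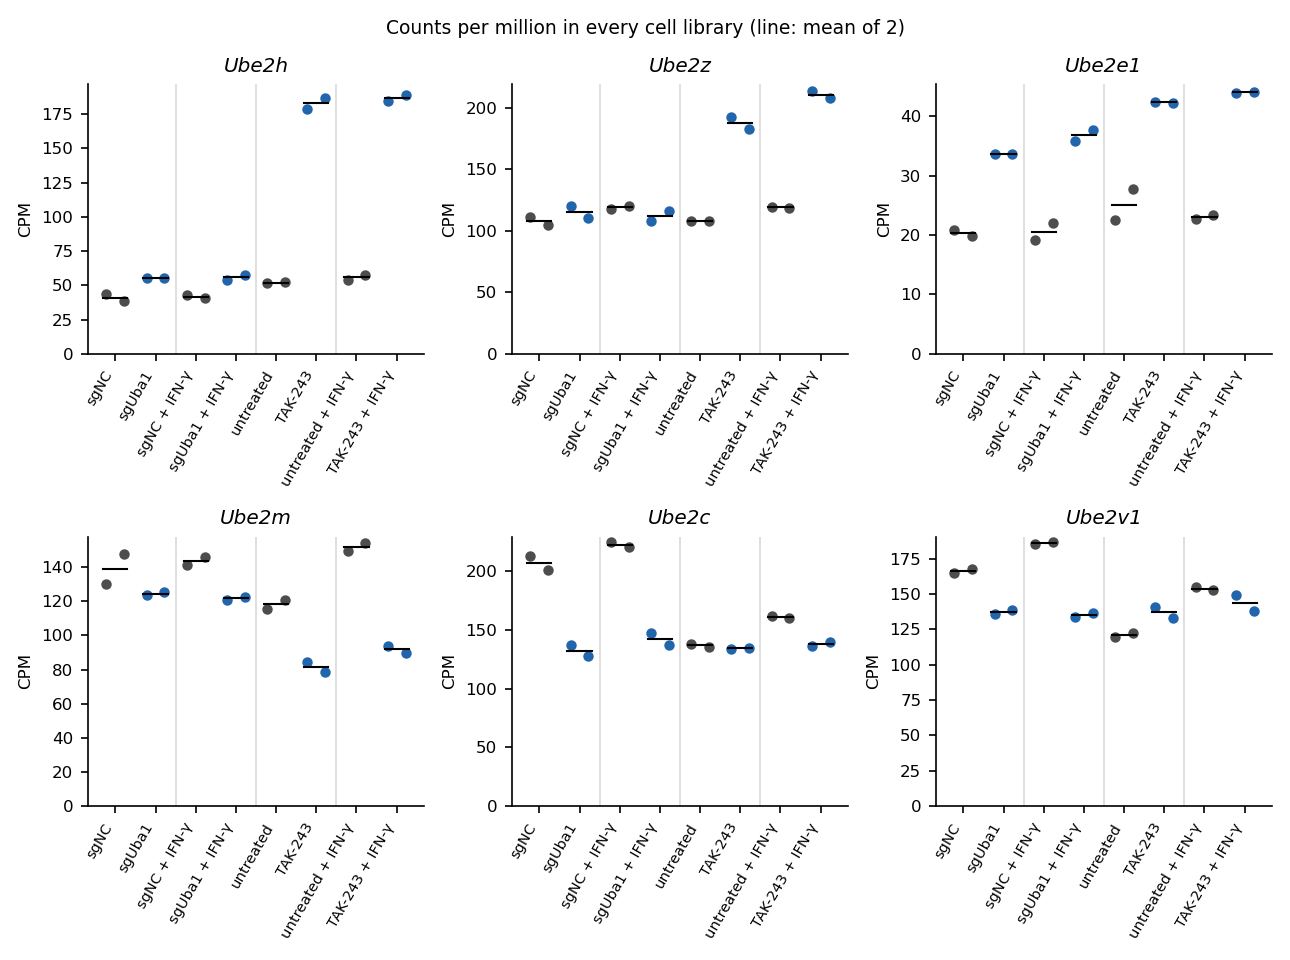
CPM of Ube2h, Ube2z, Ube2e1, Ube2m, Ube2c and Ube2v1 in each of the 16 cell libraries, by group. TAK-243 libraries lie apart from untreated ones for Ube2h, Ube2z, Ube2e1 and Ube2m, and sgUba1 libraries lie below sgNC for Ube2c and Ube2v1.

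With IFN-γ present in both arms, TAK-243 changed 24 members as well, 17 higher and 7 lower (68.3% of all genes tested, 32.1% higher and 36.2% lower), and 28 members did not overlap, against 82.7%. Calls were shared by 21 members, 87.5% of each set, of which 20 had the same direction in both. Over all genes the shared calls were 89.8% and 87.4% of the sets, 99.7% of them with the same direction, so the share among the members was near that background. Ube2h held 54.2 and 57.8 against 185 and 189 CPM (1.74), Ube2w 16.97 and 18.4 against 35.7 and 36.2 CPM (1.02), Ube2e1 22.7 and 23.4 against 43.9 and 44.1 CPM (0.93), and Ube2m 149 and 154 against 94.1 and 90.0 CPM (−0.72, adjusted p = 5.65e-23). The exception was Ube2v1, which was higher with TAK-243 alone (0.18) and lower with TAK-243 and IFN-γ (−0.10, adjusted p = 0.0281).

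The difference between those effects was tested, and 3 members passed, all more negative with IFN-γ, against 3.08% of all genes (2.54% lower): Ube2v1 (−0.28, adjusted p = 0.00175), Ube2l3, which works with HECT and RBR ligases (−0.22, adjusted p = 0.00903), and Ube2c (−0.19, adjusted p = 0.0371). Ube2c held 162 and 160.1 CPM with IFN-γ alone and 136 and 139.8 CPM with both. These calls rest on few libraries. Leaving out 1 library gave 0 to 3 calls: 1 without TAK-243 library 1, without untreated IFN-γ library 2 or without TAK-243 and IFN-γ library 1, and 0 without TAK-243 and IFN-γ library 2. Ube2v1 was at −0.18 without TAK-243 library 1 (adjusted p = 0.118) and without TAK-243 and IFN-γ library 2 (adjusted p = 0.27), and the calls on Ube2l3 and Ube2c were lost in 5 and in 8 of the 8 fits.

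IFN-γ on its own changed 15 members in untreated cells, 12 higher and 3 lower (30.0% of all genes tested, 20.1% higher and 9.86% lower). There 22 members did not overlap, against 62.7%. In sgNC cells it changed 0 members by edgeR (5.30% of all genes tested, 4.30% higher and 0.998% lower). An unadjusted p under 0.05 was reached there by 9 members and by 3604 of all 15530 genes. In the same cells 19 members did not overlap, against 50.9%. In untreated cells Cdc34 (0.40), Ube2m (0.36), Ube2v1 (0.34) and Ube2g2, an enzyme of endoplasmic reticulum degradation (0.31), rose, and Birc6 (−0.30, from 598 and 587 to 479 and 483 CPM) and Ube2v2 (−0.31) fell. On log2(TPM + 1) the median of all genes moved from 0.04 to −0.14 and that of the members from 0.07 to −0.15, 9 members passed, and of those named Cdc34 (0.22), Birc6 (−0.50) and Ube2v2 (−0.51) did. In sgNC cells the members with the smallest p were Ube2v1 (0.16, adjusted p = 0.0549) and Cdc34 (0.14, adjusted p = 0.0838), and both passed when either sgNC library was left out, with 10 members called without library 1 and 6 without library 2. The difference between sgNC and untreated cells in the response to IFN-γ was not tested.

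Guide RNA against Uba1 changed 13 of 31 members in cells, 8 higher and 5 lower, where 30.5% of all genes tested passed (16.7% higher and 13.8% lower), and 21 did not overlap, against 60.5%. Their median was 0.10, against 0.00 over all genes. Both APC/C members fell. Ube2c held 213 and 201 CPM in sgNC cells and 137 and 128 CPM in sgUba1 cells, without overlap (−0.65, SE 0.05, adjusted p = 1.09e-06), and Ube2s 333 and 355 against 316 and 306 CPM (−0.15, adjusted p = 0.0339). Of 20 proliferation genes 11 fell and 0 rose, with a median of −0.23, and their part in the fall of Ube2c was not tested. Of the 9 broad or priming members 5 rose and 0 fell. Ube2e1 held 20.9 and 19.8 against 33.7 and 33.6 CPM (0.72, SE 0.08, adjusted p = 7.76e-06), Ube2h 43.5 and 38.6 against 55.0 and 55.2 CPM (0.43, adjusted p = 0.000217), and Ube2l3 180.0 and 185 against 221 and 224 CPM (0.29). Ube2q2 rose from 78.7 and 77.7 to 94.3 and 95.9 CPM (0.28), and Ube2v1 fell from 165 and 168 to 136 and 139 CPM (−0.28, adjusted p = 0.000328). Neither NEDD8 carrier passed, and Ube2m held 130.3 and 148 against 123 and 126 CPM (adjusted p = 0.0504). The calls on Ube2a (0.38, adjusted p = 0.0321) and Ube2w (0.26, adjusted p = 0.0395) were lost without sgNC library 2 (0.19 and 0.15), sgUba1 library 1 (0.44 and 0.17) or sgUba1 library 2 (0.28 and 0.32). The number called was 20 without sgNC library 1 and 7 without sgUba1 library 2.

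With IFN-γ in both arms 18 members differed, 10 higher and 8 lower (39.8% of all genes tested, 17.3% higher and 22.6% lower; 26 without overlap, against 70.8%). Of these, 11 were among the 13 called without IFN-γ (84.6% of the 13 and 61.1% of the 18), all with the same direction, where over all genes the shared calls were 75.4% and 57.7% of the sets and 98.5% of them had the same direction. Ube2c held 225 and 220.4 against 147 and 137 CPM (−0.65), Ube2e1 19.2 and 21.9 against 35.8 and 37.7 CPM (0.84), Ube2a 20.6 and 23.2 against 31.3 and 33.3 CPM (0.56), and Ube2v1 185 and 187 against 134 and 136 CPM (−0.46). The change in the effect of the guide with IFN-γ passed for Cdc34 (−0.26, adjusted p = 0.0308) and Ube2o (−0.33, adjusted p = 0.0313), 2 of 31, both lower, against 6.19% of all genes (5.26% lower). Cdc34 held 76.7 and 76.6 CPM in sgNC, 77.3 and 74.9 in sgUba1, 85.4 and 83.7 in sgNC with IFN-γ and 70.7 and 69.5 CPM in sgUba1 with IFN-γ. Both calls were lost without any one of the 6 libraries other than the sgNC ones (adjusted p between 0.0855 and 0.393), and without sgNC library 1 or 2 the number of members called was 6 or 10.

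The inhibitor and the guide, which share no control libraries, were compared directly, and 21 members differed, 17 with a higher and 4 with a lower change under TAK-243 (55.6% of all genes tested, 25.3% higher and 30.3% lower). The difference was largest in Ube2h (1.36, SE 0.08, adjusted p = 3.18e-15), Ube2w (0.75), Ube2z (0.68) and Ube2r2 (0.64). Ube2s differed by 0.63 (adjusted p = 5.48e-11), rising with TAK-243 and falling with the guide, and Ube2c by 0.60 (adjusted p = 3.3e-09), at −0.03 with TAK-243 and −0.65 with the guide. The controls were untreated Myc-CaP cells in one experiment and sgNC cells in the other, and their levels differed in some members. Ube2c stood at 265 to 269 TPM in untreated, 402 to 414 TPM in sgNC and 258 to 272 TPM in sgUba1 cells. Ube2s stood at 441 to 444, 483 to 526 and 461 to 472 TPM in the same order. Ube2e1 overlapped between the controls (29.7 to 35.8 and 28.8 to 30.0 TPM). The part of the controls in these differences was not tested. Ube2e1 rose by 0.75 and 0.72, a difference of 0.01 (adjusted p = 0.97). Of the calls, 11 were shared (45.8% of the 24 and 84.6% of the 13): Ube2a, Ube2d3, Ube2e1, Ube2h, Ube2j1, Ube2l3, Ube2q2 and Ube2w rose in both, and Ube2k, Ube2s and Ube2v1 rose with TAK-243 and fell with the guide. Over all genes the shared calls were 39.4% and 80.0% of the sets, and 48.4% of them had the same direction. Uba1 itself stood at 445 and 452 CPM in untreated and 565 and 594 CPM in TAK-243 cells (0.37).

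In tumors few members changed. In B16-BL6 sgUba1 tumors 0 of 31 passed by edgeR (0.895% of all genes tested), and DESeq2 called 1. An unadjusted p under 0.05 was reached by 7 members and by 2844 of all 17539 genes tested. Between the groups 7 members did not overlap, against 15.3%. The smallest p were those of Birc6, at 487, 497 and 562 CPM in sgNC and 633, 578, 608 and 649 CPM in sgUba1 tumors (0.26, SE 0.07, adjusted p = 0.142), and Ube2m, at 127, 142 and 132 against 101, 116, 114 and 119.7 CPM (−0.25, SE 0.07, adjusted p = 0.157). Neither overlapped between the groups. Ube2c was at 84.8, 87.6 and 76.6 against 73.9, 88.0, 72.7 and 94.5 CPM (−0.01, adjusted p = 0.961), and Ube2s at −0.18, Ube2t at 0.14 and Ube2f at −0.02 on the log2 scale likewise overlapped.

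In the Myc-CaP tumors labelled sgUba1, 1 member passed, as a lower value (2.99% of all genes tested, 1.14% higher and 1.85% lower), and 4 did not overlap with sgNC, against 10.9%. Ube2q2 stood at 62.8, 129.8 and 74.0 CPM in sgNC tumors and at 41.1, 48.7 and 51.8 CPM (lowest, median and highest of 7) in the tumors labelled sgUba1, all of which lay below all sgNC tumors (−0.90, SE 0.18, adjusted p = 0.036). The call was lost in 7 of 10 fits that left out 1 tumor, namely sgNC 2 (−0.53, adjusted p = 0.0914), sgNC 3 (−1.01), sgUba1 1 (−0.89), 4 (−0.86), 5 (−0.90), 6 (−0.90) and 7 (−0.90), and with sgUba1 tumors 1 to 3 alone (−0.86, adjusted p = 0.178). Its spread in other control tumors of this model was wide too, 64.8 to 119 CPM in vehicle tumors, while EV tumors held 52.2 to 54.8 CPM, each scaled in its own experiment.

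Other members of these tumors moved with replicates 4 to 7. Birc6 was at 733, 689 and 738 CPM in sgNC tumors and at 746, 901 and 1188 CPM (lowest, median and highest of 7) in the labelled sgUba1 tumors, with a log2 change of 0.37 (adjusted p = 0.192) that became 0.09 with tumors 1 to 3 alone. Ube2r2 went from 0.47 (adjusted p = 0.194) to 0.06 in the same step, and Ube2b from −0.06 to −0.40 (adjusted p = 0.16). Ube2a, at 22.2, 19.3 and 23.4 against 24.7, 28.1 and 30.7 CPM, did not overlap (0.36, adjusted p = 0.0945). Ube2c, at 69.2, 25.6 and 79.3 CPM in sgNC tumors and 20.01, 39.1 and 61.2 CPM in the labelled sgUba1 tumors, changed by −0.48 (adjusted p = 0.461), with sgNC tumor 2 far below its group. Ube2s changed by 0.18, Ube2t by −0.42 and Ube2m by 0.085, Ube2f was at 48.3, 63.6 and 49.3 against 47.2, 51.1 and 63.6 CPM, and none of them passed. With tumors 1 to 3 alone 0 members passed and 0.00638% of all genes did. The summed level of 5 myeloid genes was 264.2 to 545.5 TPM in the labelled sgUba1 tumors and 168.4 to 315.3 TPM in sgNC, and its part in these values was not tested. The guide's effect differed between the models in 1 member, Ube2q2 (1.04 higher in B16-BL6, SE 0.23, adjusted p = 0.0379; 1.59% of all genes tested), and 11 of 17 fits that left out 1 tumor lost that call, as did tumors 1 to 3 alone (adjusted p = 0.0802).

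Uba1 OE gave 0 calls among the members by edgeR, where 0.00673% of all genes tested passed, and DESeq2 called 1. An unadjusted p under 0.05 was reached by 4 members and by 2679 of all 14853 genes tested. With EV 6 members did not overlap, against 20.7%. Ube2q2 was at 52.8, 52.2 and 54.8 CPM in EV and 82.0, 82.6, 81.9 and 63.9 CPM in OE tumors, all above EV (0.54, SE 0.11, adjusted p = 0.128), and passed without OE tumor 1 (0.52, adjusted p = 0.0355) or OE tumor 4 (0.63, adjusted p = 0.0414). Ube2g1, which builds K48-linked chains, was at 47.0, 45.9 and 49.0 against 67.2, 60.2, 55.5 and 53.0 CPM (0.32, SE 0.10, adjusted p = 0.185), without overlap. Ube2c held 49.4 to 63.2 CPM in EV tumors against 127, 82.3, 60.4 and 72.6 CPM (0.57, SE 0.24, adjusted p = 0.263), and OE tumor 1 was the highest for Ube2c, Ube2s (272 CPM) and Ube2t (11.7 CPM). The changes were 0.41 for Ube2s, 0.52 for Ube2t, 0.17 for Ube2m and −0.02 for Ube2f, none of which passed. Summed proliferation genes ran from 981.7 to 1990 TPM in OE and 981.9 to 1104 TPM in EV tumors.

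TAK-243 tumors gave 0 calls by edgeR as well (0.145% of all genes tested, 0.0867% higher and 0.0578% lower), and 2 by DESeq2. An unadjusted p under 0.05 was reached by 6 members and by 2590 of all 17299 genes tested. Free of overlap were 0 members, against 2.03%. On the log2 scale 26 of 31 members were lower, with a median of −0.10 against 0.01 over all genes. The APC/C members had the smallest p. Ube2c was at 51.4, 60.7 and 81.0 CPM (lowest, median and highest of 6) in vehicle tumors and at 31.6, 32.4, 54.3, 25.7 and 50.3 CPM with TAK-243 (−0.68, SE 0.20, adjusted p = 0.165). Ube2s was at 118, 140.2 and 177 CPM against 92.6, 99.3, 107, 78.5 and 127 CPM (−0.49, SE 0.14, adjusted p = 0.163). For Ube2c 1 and for Ube2s 1 treated tumor reached into the range of vehicle. Ube2t was at 4.69, 6.63 and 9.997 CPM against 2.38, 3.87, 5.84, 2.61 and 5.45 CPM (−0.76, SE 0.26, adjusted p = 0.226). The 20 proliferation genes summed to 486.4 to 859.6 TPM with TAK-243 and to 919.9 to 1345 TPM with vehicle (median change −0.74, 0 called), and their part in the values of Ube2c, Ube2s and Ube2t was not tested. Ube2f was at 44.95, 48.5 and 50.2 CPM against 62.7, 53.1, 59.2, 62.1 and 44.3 CPM (0.23, adjusted p = 0.274), and passed without TAK-243 tumor 5 (0.30, adjusted p = 0.0487). Ube2m changed by −0.15. Ube2h, the leading gene in treated cells, was at 135, 149 and 156 CPM against 143, 164, 166, 170.1 and 192 CPM (0.18, SE 0.08, adjusted p = 0.317). Dose, time and surroundings differ between tumors and cells, and the difference in response was not tested.

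**Figure D4:**
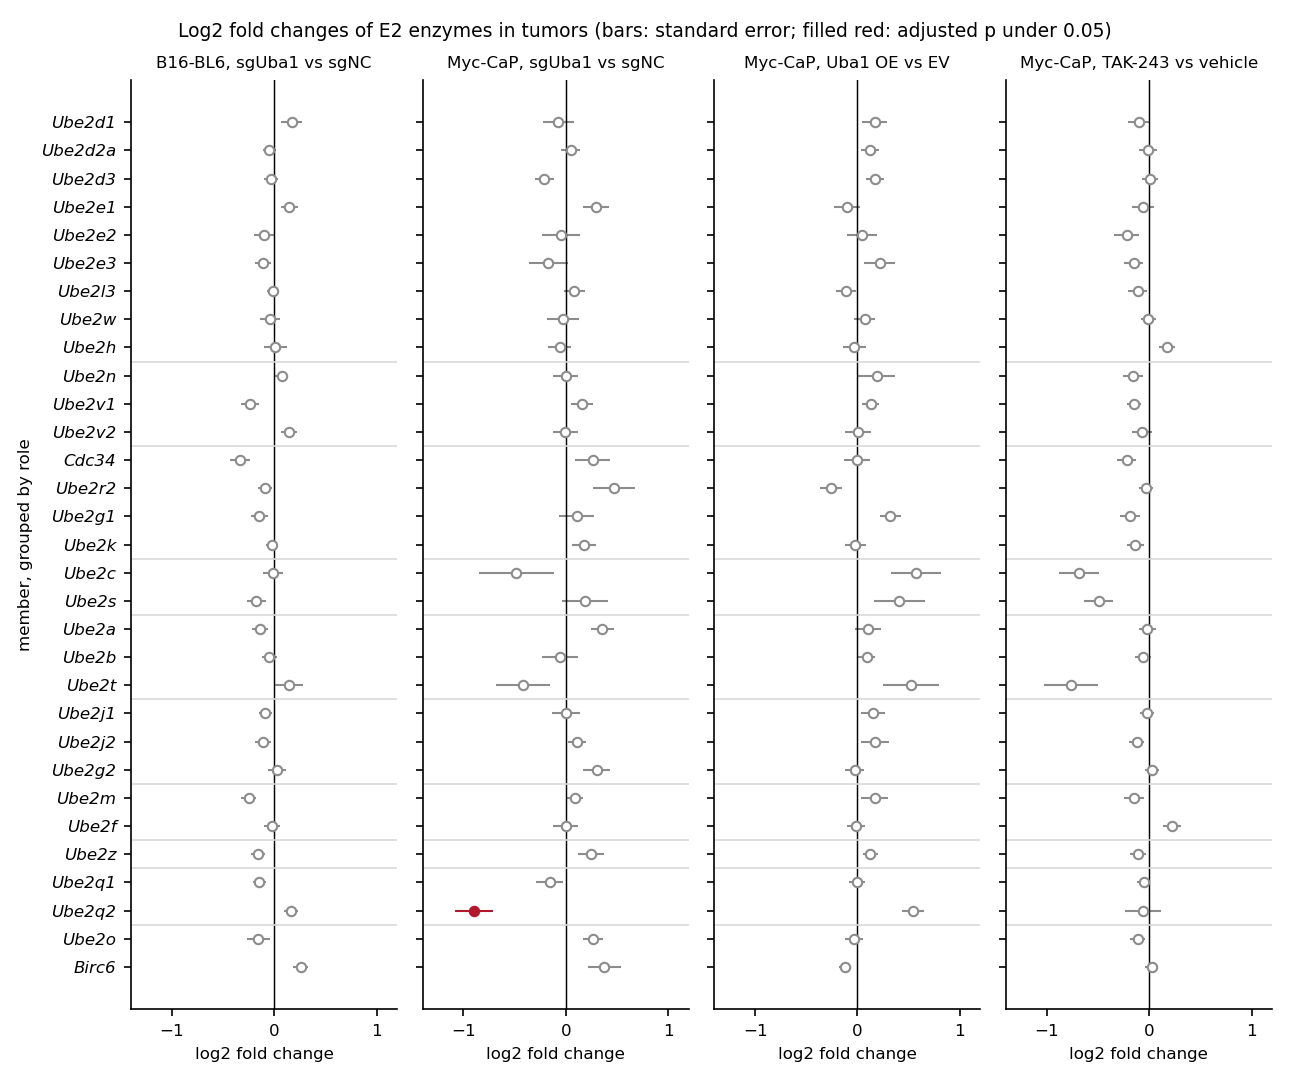
Log2 fold changes of the 31 members in the 4 tumor comparisons, grouped by role, with 1 SE as bars and filled points where the adjusted p is under 0.05. The only filled point is Ube2q2 (−0.90) in the Myc-CaP tumors labelled sgUba1.

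**Figure D5:**
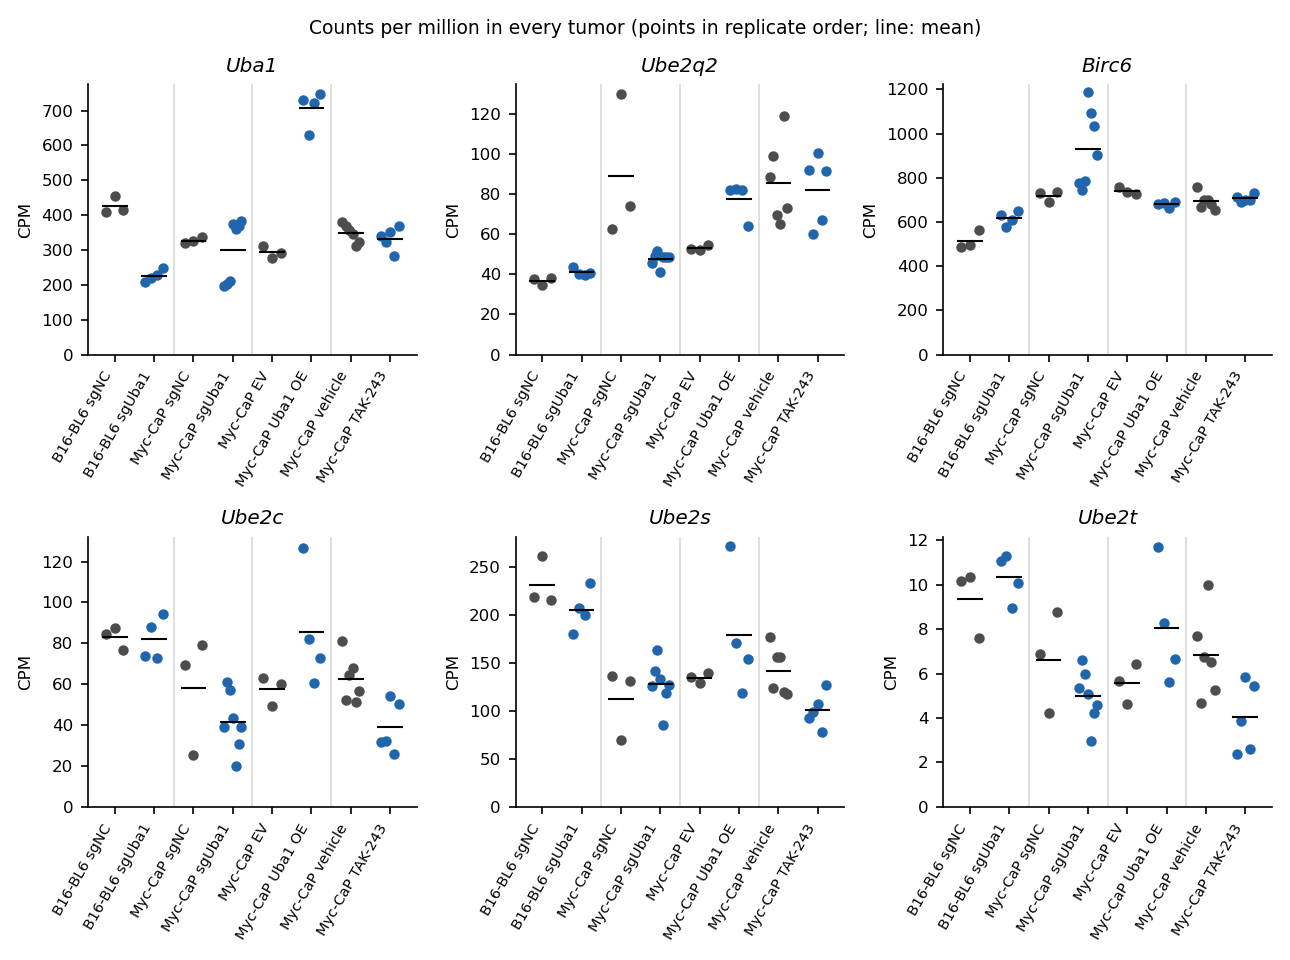
CPM of Uba1, Ube2q2, Birc6, Ube2c, Ube2s and Ube2t in each of the 35 tumors, by group, each scaled within its own experiment. Uba1 lies below sgNC in 3 and above it in 4 of the 7 Myc-CaP tumors labelled sgUba1, and Ube2q2 is at 129.8 CPM in sgNC tumor 2.

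The enzymes around the E2s were followed in lists chosen for their roles. To set the counts in all these lists in scale, TAK-243 in cells changed 9669 of all 14551 genes tested. The guide changed 4738 of 15530. Of 10 E1 enzymes, TAK-243 in cells raised 4 and lowered 2: Uba3, the catalytic part of the NEDD8 E1 (0.77), Uba6 (0.62), Uba1 (0.37) and Sae1 of the SUMO E1 rose, and Uba2 of the SUMO E1 (−0.42) and Nae1, the other part of the NEDD8 E1 (−0.33), fell. The guide lowered Uba1 (−0.87) and Uba3 (−0.23), and Uba7, the E1 of the interferon-induced modifier ISG15, passed at a low level (1.35, SE 0.44, adjusted p = 0.0309), with 0.0968 and 0.105 TPM in sgNC and 0.197 and 0.333 TPM in sgUba1 cells. IFN-γ raised Uba7 by 2.05 in untreated and 1.94 in sgNC cells. Of 11 further E2 and E2-like genes 9 were tested, and TAK-243 raised 3 and lowered 3, the latter including the ISG15 E2 Ube2l6 (−0.54) and the autophagy enzyme Atg3 (−0.84).

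Of 12 NEDD8 pathway genes TAK-243 raised 5 and lowered 5. Besides Uba3, Nedd8 (0.27) rose, and Dcun1d2 (−0.85) and the NEDD8 protease Senp8 (−0.72) fell. The guide alone lowered 2, Uba3 and Rbx1 (−0.27), and raised 0. With IFN-γ in both arms neither passed, Uba3 being at −0.07 (adjusted p = 0.278) and Rbx1 at −0.11 (adjusted p = 0.236). There Dcun1d1 (0.34), Rnf7 (0.32), Dcun1d5 (0.21) and Nedd8 (0.20) rose, and no other gene of the list passed. Of 17 APC/C genes the guide raised 1 and lowered 6, the largest falls being Anapc4 (−0.43), Anapc2 (−0.39) and Anapc1 (−0.31). With IFN-γ it raised 0 and lowered 10, where 6186 of all 15530 genes tested changed. TAK-243 raised 5 and lowered 8 of the 17 APC/C genes, with Fbxo5, the APC/C inhibitor EMI1, at −0.89, Anapc4 at −0.53 and Anapc10 at 0.53. In sgNC cells against tumors 13 APC/C genes and 9 NEDD8 genes were higher and 0 lower. The share of all genes is given above with that comparison. In the 4 tumor comparisons no gene of these 4 lists other than Uba1 passed.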

How the data were processed

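The values deposited by the authors are expected counts, estimated for each gene and mostly fractional, and TPM, scaled for length. The submitters' notes name kallisto and mm10, with versions not given in the sources used here. Ribosomal RNA was removed according to the study's methods, whereas the labels name poly-A capture. Expected counts were rounded to whole numbers, since the design had assumed counts. Samples were grouped by their labels.

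Each tumor experiment was fitted alone, and the 8 libraries of each cell experiment together, on all genes, with filterByExpr (minimum count 10, minimum total 15), TMM factors and edgeR 4.0.16 quasi-likelihood tests with Benjamini-Hochberg adjustment at 0.05 (R 4.3.3). CPM use the TMM factors. The comparison of inhibitor and guide fitted all 16 cell libraries, and the model and culture comparisons the libraries they name. Fits were tested on simulated data.

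The members and lists were chosen with earlier results of these data known. Per comparison the members named are at most the 8 largest changes past the threshold, or the 2 smallest p where none passed, and in tumors also Ube2c, Ube2s, Ube2t, Ube2m and Ube2f; other members and list genes beyond 4 were named after their values were seen. Alternatives were RLE, DESeq2 1.42.0, limma-voom and limma on log2(TPM + 1) with a pseudocount of 1 (limma 3.58.1), no filter, a replicate block, only the 2 groups compared, and each library left out. Figures used Python 3.11.15 and matplotlib 3.10.9.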

Additional observations from a re-analysis of the deposited data

Results flagged for a closer look

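Within tumor groups of 4 to 7, 160 sets of values of the members and Uba1 were examined for a tumor far from the rest, and 6 were found, all in members, where chance flags about 1 in 20. In B16-BL6 sgUba1 tumors Ube2j1 was at 66.5 CPM in replicate 4, above the others at 60.9 to 61.5 CPM, and Ube2v2 at 33.9 CPM in replicate 3, below the others at 38.9 to 39.8 CPM. In Myc-CaP tumors labelled sgUba1, Ube2o was at 118 CPM in replicate 5, above the others at 88.8 to 98.1 CPM. In Uba1 OE tumors Ube2d2a was at 95.1 CPM in replicate 1 (others 82.4 to 84.3 CPM), Ube2k at 101 CPM in replicate 3 (others 123 to 127 CPM) and Ube2q2 at 63.9 CPM in replicate 4 (others 81.9 to 82.6 CPM).

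Effects that differed between conditions in a test of the difference itself were as follows. The guide's effect was lower with IFN-γ than without for Cdc34 (−0.26 on the log2 scale) and Ube2o (−0.33). The effect of TAK-243 was lower with IFN-γ for Ube2l3 (−0.22), Ube2v1 (−0.28) and Ube2c (−0.19). The guide's effect on Ube2q2 was 1.04 higher in B16-BL6 than in Myc-CaP tumors. Each of these calls was lost when some single libraries were left out, and the call on Ube2c was lost whichever library was left out.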

How the results depend on the processing

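Number of members called, by setting. DESeq2 gave 1 in B16-BL6 sgUba1 tumors (0 in edgeR), 2 in Myc-CaP tumors labelled sgUba1 (1), 1 with Uba1 OE (0), 2 in TAK-243 tumors (0), 0 for the change of the guide's effect with IFN-γ (2) and 3 for the difference between models (1). Limma-voom gave 0 in Myc-CaP tumors labelled sgUba1 and 1 for the guide's change with IFN-γ, and RLE 0 for the latter. On log2(TPM + 1) the numbers were 0 in Myc-CaP tumors labelled sgUba1, 7 in sgUba1 cells (13), 0 for the guide's change with IFN-γ, 9 for IFN-γ in untreated cells (15), 0 for the change of the TAK-243 effect with IFN-γ (3) and 0 for the difference between models. For TAK-243 with IFN-γ that scale moved the median of all genes from 0.02 to 0.12 and the members' from 0.24 to 0.48, and for the change of the TAK-243 effect both medians from −0.04, to 0.11 and 0.12. Without a filter IFN-γ in sgNC cells gave 1, with only the 2 groups compared sgUba1 cells gave 7, and with tumors 1 to 3 alone the labelled sgUba1 tumors and the difference between models gave 0 each.

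Correlations of the deviations of same-numbered samples ran from −0.313 to 0.481 in tumors and from −0.045 to 0.242 in cells with guides. In TAK-243 cells they ran from 0.0287 to 0.0866, all positive but small. In cells both numbered pairs of 2 groups gave the same value, so they say little about a pairing. The numbers were not taken as a pairing, since in tumors and in cells with guides some pairs deviated in opposite directions. With a replicate block 0 members passed in Myc-CaP tumors labelled sgUba1, 1 for IFN-γ in sgNC cells, 0 for the difference between models, 6 between control tumors (14) and 12 between sgNC cells and tumors (22).

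Leaving out each library in turn gave 0 to 1 in each of the 4 tumor comparisons, 7 to 20 in sgUba1 cells, 0 to 10 for IFN-γ in sgNC cells and for the guide's change with IFN-γ, 0 to 3 for the change of the TAK-243 effect, 0 to 2 for the difference between models and 10 to 24 between cells and tumors, and 21 to 24 with TAK-243, 22 to 23 with TAK-243 and IFN-γ and 12 to 18 between control tumors.

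Changes of sign fell on values not called in edgeR with all libraries, apart from Ube2q1 with IFN-γ in untreated cells (0.22, and −0.024 on log2(TPM + 1)). In B16-BL6 Ube2c was at 0.031 on log2(TPM + 1), 0.037 with the block and −0.094 to 0.035 leaving out a tumor, and Ube2f at 0.0037, 0.0068 and −0.094 to 0.0036. In the labelled sgUba1 tumors Ube2f was at −0.10 with the block, −0.12 with tumors 1 to 3 and −0.075 to 0.13 leaving out a tumor, and Ube2s at −0.072 to 0.34. With OE Ube2f was at 0.062 on log2(TPM + 1) and −0.052 to 0.018 leaving out a tumor, Cdc34 with IFN-γ in sgNC cells, which passed when either sgNC library was left out, at −0.021 on log2(TPM + 1), and Ube2f for the difference between models at 0.11 with the block, 0.088 with tumors 1 to 3 and −0.18 to 0.037 leaving out a tumor. The cause of these changes was not tested. Rare members limit precision: Ube2t stood at 36 counts in 1 tumor.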
